A study of Caenorhabditis elegans with 40 samples.

Results

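The col genes are the largest set of cuticle collagens of the nematode Caenorhabditis elegans, and their RNA is described here in 2 genotypes, 2 ages and 3 temperatures. Every row of the comparison tables whose gene name begins with col- was taken, which gave 157 genes of 42048 features, and 129 of these reached a mean of 10 or more normalized reads in at least 1 of the 8 groups. The other 28 stayed under that minimum and are not described further. Of all features, 17141 reached the same minimum. The members just inside it were col-164, col-123 and col-50, with highest group means of 10.3, 10.5 and 11.6 normalized reads. Just outside it stood col-151, col-128 and col-78, at 8.73, 8.95 and 9.24.

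Poly(A) RNA of whole animals fed E. coli OP50 was sequenced in 40 libraries, 5 in each group. The octr-1(ok371) strain carries an allele of octr-1, which encodes a G protein-coupled receptor for octopamine that acts in sensory neurons, and it was set against wild-type N2 (WT). Young adults of both genotypes were kept at 20 °C. Old animals of both were taken at 15 °C (adult day 24), at 20 °C (adult day 14) or at 25 °C (adult day 9). A comparison of old animals between temperatures is therefore also one between days of adulthood, and the 2 cannot be told apart. Whether the 5 libraries of a group are from separate cultures is not stated in the labels, so p-values cover only the variation among these libraries, and that variation may be technical. In RNA of whole animals, fewer cells of a type and less RNA per cell cannot be told apart.

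Cuticle collagens are short secreted proteins whose chains carry Gly-X-Y repeats and fold into triple helices. The epidermis makes them, and they are trimmed, cross-linked and laid down outside it as the cuticle, the animal's exoskeleton, which is shed and remade at each larval molt and for the last time on entry into adulthood. Different col genes are used at different molts: col-19 is the common marker of the adult cuticle, col-7 and col-62 are also counted among the adult-stage collagens, and dauer larvae use others such as col-2 and col-6, neither of which reached the minimum here. Higher expression of some cuticle collagens, among them col-10, col-13 and col-120, is known to prolong life in this animal, and col-144 has served as a reporter of collagen expression in aging worms. col-99 stands apart, as it encodes a collagen with a transmembrane segment that takes part in axon guidance. For the remaining members no role beyond that of a collagen is given here.

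The libraries held between 27875942 and 40997854 reads assigned to features. The octr-1 gene itself was lower in octr-1 libraries of every condition, by 3.42-fold when young and, when old, by 4.27-fold at 15 °C, 6.65-fold at 20 °C and 6.63-fold at 25 °C, with no overlap between the genotypes. In the table that compares old octr-1 animals at 25 and 20 °C the column names of both groups were exchanged against the other tables, whose recovered reads are identical under the other name, and the names of the other tables were used. A few libraries stood apart for the col genes. WT young replicate 1 was the highest of its group for 72 of the 97 members with a group mean of at least 10, and WT young replicate 2 was the lowest for 59 of them. WT old 15 °C replicate 3 was the highest of its group for 68 of 110 members. For each comparison that uses 1 of these 3 libraries directly, the counts of members higher and lower are given with and without it.

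The col genes gave a larger share of the reads in young than in old animals of either genotype. In young animals they took 1.08% ± 0.106 of assigned reads in octr-1 (SD, n = 5) and 0.912% ± 0.138 in WT, and these ranges overlapped, at 0.979 to 1.23% in octr-1 and 0.718 to 1.11% in WT. In old animals the genotypes were separate at every temperature. At 15 °C the share was 0.0312% ± 0.00299 in octr-1 and 0.0516% ± 0.00489 in WT. At 20 °C it was 0.0650% ± 0.00172 in octr-1 and 0.139% ± 0.0133 in WT. At 25 °C it was 0.0254% ± 0.00185 in octr-1 and 0.164% ± 0.00469 in WT. The order of the temperatures thus differed between the genotypes: among old octr-1 animals the share was highest at 20 °C, while among old WT animals the range at 25 °C (0.159 to 0.171%) overlapped that at 20 °C (0.128 to 0.160%) and both lay above that at 15 °C. WT old 15 °C replicate 3, at 0.0601%, was the highest of its group, and without it, left out after its value was seen, the share was 0.0494% ± 0.00122 (n = 4).

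**Figure D1:**
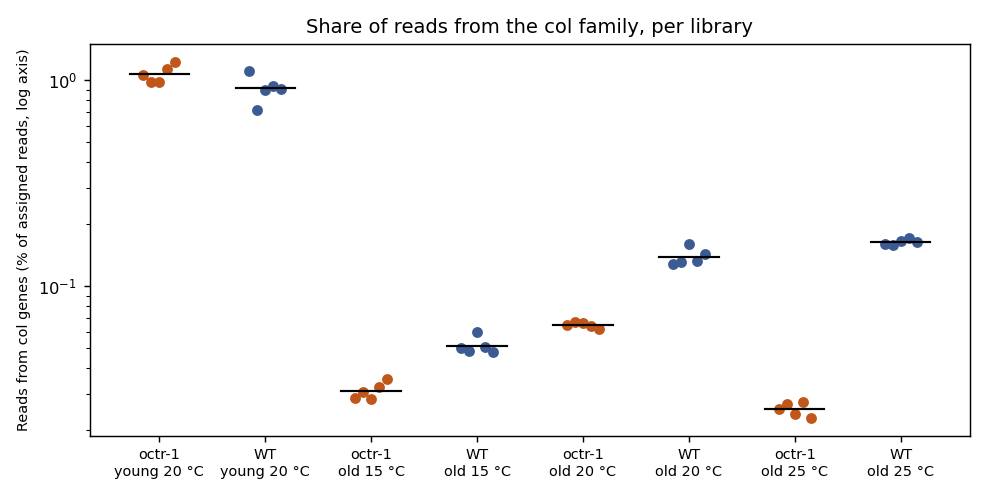
Reads from col genes as a percent of assigned reads in each of the 40 libraries (log axis), octr-1 left of WT at each age and temperature; points are libraries and bars are group means. The 2 young groups overlap near 1%, and the old octr-1 libraries lie below the old WT libraries at every temperature, with the widest gap at 25 °C.

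Levels across the 8 groups are given as scaled reads, that is, reads recovered from the tables and scaled to a common depth by edgeR's TMM method. Young octr-1 animals had the highest mean for 52 of the 129 members and young WT animals for 6. Old WT animals at 25 °C had the highest mean for 33 members, and old octr-1 animals at 25 °C for 2. The lowest mean fell in old octr-1 animals at 25 °C for 57 members. These counts rank means without a test, however close the means are, and the share of all features is not given here. Of the 58 members highest in a young group, 57 were tested between the young genotypes. There 30 were called higher in octr-1 and 2 lower, where 19.6% of all features rose and 24% fell. Members with a mean of at least 1000 scaled reads numbered 28 in young octr-1 and 26 in young WT animals. In old animals they numbered 0 in octr-1 and 5 in WT at 15 °C, 5 in octr-1 and 12 in WT at 20 °C, and 1 in octr-1 and 15 in WT at 25 °C. The family's reads came from few genes: its 10 most abundant members gave 67.2% of its scaled reads in young octr-1 and 69.9% in young WT animals, and between 51.8 and 74.6% in the old groups.

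Per kilobase of exon, the most abundant members were the same few genes in most groups. In young octr-1 animals col-124 led with 42487 scaled reads per kb, followed by col-122 with 39985 and col-119 with 37888. In young WT animals col-119 led with 43470, followed by col-122 with 38145 and col-140 with 31353. In old animals at 20 °C the first 5 were col-122, col-181, col-106, col-184 and col-119 in both genotypes, with 2200 scaled reads per kb for col-122 in octr-1 and 5175 in WT. At 25 °C the order differed: col-106 led in octr-1 with 1544 scaled reads per kb, against 4548 in WT, while col-122 had 373 in octr-1 and 5032 in WT.

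**Figure D2:**
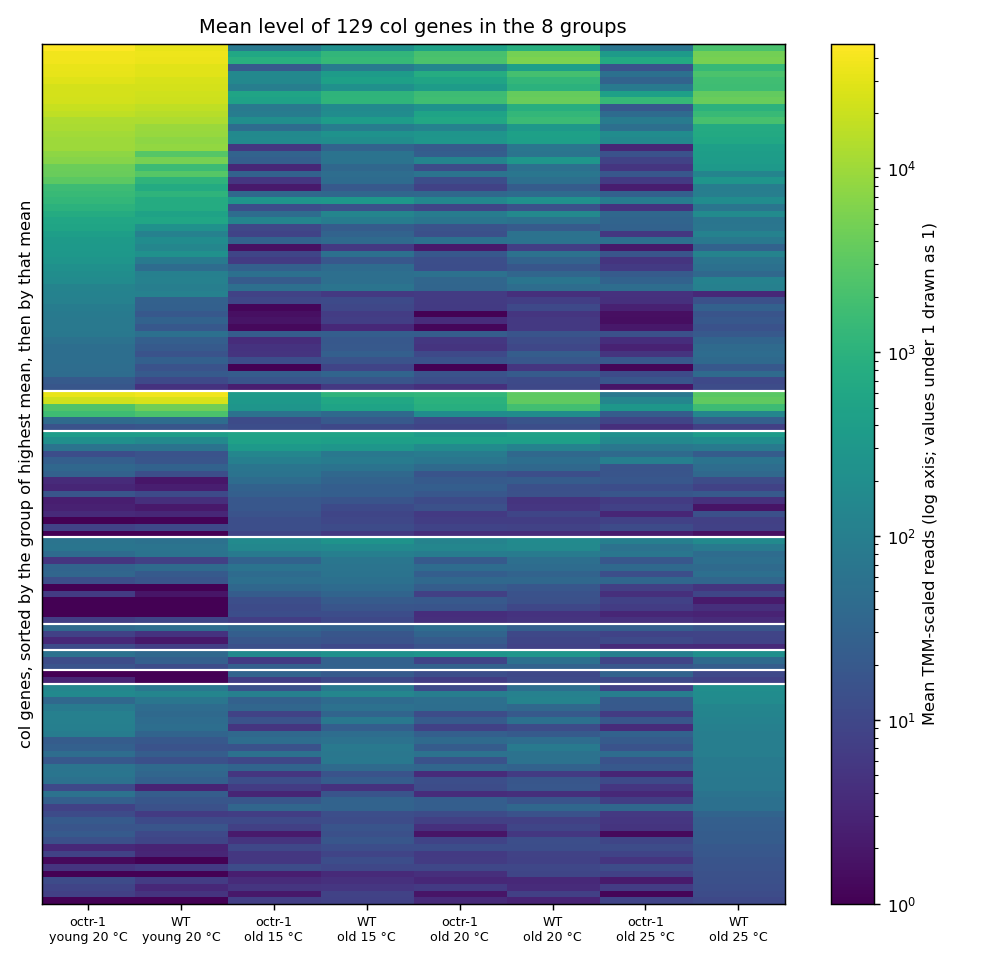
Mean scaled reads of the 129 col genes (rows) in the 8 groups (columns), on a log colour axis where means under 1 are drawn as 1. Rows are sorted by the group of highest mean, and white lines separate those blocks; the 52 genes highest in young octr-1 animals form the block at the top, and the octr-1 old 25 °C column holds the lowest mean of 57 genes.

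The young adults give the genotype difference before aging, and there col genes were higher in octr-1 more often than lower. Of the 93 members with enough reads to test, 39 rose and 6 fell in octr-1, where 19.6% of all 13122 features tested rose and 24% fell (limma on log2 values, Benjamini-Hochberg adjusted p under 0.05). The median log2 fold change was 0.51 for the tested members, against -0.01 for all features. Of the tested members, 24 rose at least 2-fold, as did 3.8% of all features, and 0 fell by as much, as did 0.29% of all features. In 6 of the 93 members 1 of the groups had a mean under 10, and 3 of those 6 were called.

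Among adult-stage collagens, col-19 was near equal in young animals, with 20672 ± 2551 normalized reads in octr-1 and 18793 ± 2543 in WT, and was not called (adjusted p = 0.345). The much less abundant col-7 had 76.8, 42.3, 70.7, 35.9 and 93.5 normalized reads in octr-1 libraries 1 to 5, against 17.5, 11.7, 11.3, 15.1 and 18.1 in WT. Every octr-1 library lay above every WT library, a 3.94-fold difference (log2 1.98, adjusted p = 1.52e-05). col-62, which neighbours col-7 in the genome, had 68.4, 43.3, 56.5, 37.5 and 80.3 in octr-1, against 9.73, 6.27, 22.6, 15.1 and 19.2 in WT, again without overlap (3.92-fold, adjusted p = 0.000203). Of the collagens known from lifespan work, col-10 rose 1.55-fold, col-13 rose 2.69-fold and col-144 rose 1.314-fold, while col-120 had 25.5 ± 8.33 in octr-1 and 15.7 ± 5.25 in WT and was not called (adjusted p = 0.0605). col-12, whose sequence is nearly the same as that of col-13, rose 3.68-fold, and reads could have been split between these copies, so their separate values are uncertain. The transmembrane collagen col-99 rose 1.32-fold.

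Among the members with a group mean of at least 100 and no overlap, the largest rise in young octr-1 animals was that of col-133. It had 153, 117, 202, 140 and 211 normalized reads in octr-1, against 39.9, 22.4, 29.3, 40.3 and 38.3 in WT (log2 fold change 2.24 ± 0.19, SE, adjusted p = 5.93e-07). col-139 had 3446, 1917, 3283, 2742 and 4340 in octr-1, against 1843, 645, 1105, 1142 and 993 in WT, with WT replicate 1 only just below the lowest octr-1 library (2.80-fold, adjusted p = 0.00499). col-39, col-81, col-129 and col-147 also rose, by 2.76- to 3.82-fold. The 6 members that fell were col-43, col-68, col-83, col-95, col-135 and col-158. col-95 had 1613, 2021, 1857, 1993 and 1749 in octr-1, against 3349, 2978, 3235, 3642 and 3844 in WT, a log2 fold change of -0.88 ± 0.07 (adjusted p = 2.17e-06). WT young replicates 1 and 2 moved these counts: 51 members rose and 5 fell of 90 tested without replicate 1, and 32 rose and 7 fell of 93 without replicate 2.

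In old animals at 20 °C the direction was mostly the other way. Of 100 members tested, 14 rose and 45 fell in octr-1, where 22.8% of all features rose and 24.7% fell, and the median log2 fold change was -0.43. A fall of at least 2-fold was called for 33 members and for 1.39% of all features. In 11 of the 100 members 1 of the groups had a mean under 10, and 7 of those 11 were called. col-19 had 578, 625, 567, 556 and 554 normalized reads in octr-1, against 1265, 1213, 1589, 1371 and 1383 in WT, so the groups were well apart (2.36-fold lower, adjusted p = 8.73e-12). col-10 was 1.79-fold lower and col-144 2.83-fold lower, col-120 and col-99 were not called, and col-7, col-12, col-13 and col-62 had too few reads to test.

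The largest falls among abundant members at 20 °C were those of col-80 (3.59-fold), col-101 (3.37-fold), col-20 (2.99-fold), col-8 (2.75-fold), col-119 (2.67-fold) and col-160 (2.58-fold). col-101 had 1155, 1074, 1138, 1004 and 977 normalized reads in octr-1, against 3155, 3482, 4347, 3605 and 3498 in WT. The less abundant col-43 had the largest fall of all tested members, with 8.32, 10.6, 12.1, 7.62 and 8.13 in octr-1, against 53.0, 67.2, 49.5, 57.5 and 56.2 in WT (log2 -2.49 ± 0.18, adjusted p = 8.81e-10). The one member with a group mean of at least 100 that rose without overlap was col-113, which had 169, 230, 199, 157 and 215 in octr-1, against 122, 132, 114, 120 and 139 in WT (1.53-fold, adjusted p = 6.97e-05). Without octr-1 old 20 °C replicate 2, 8 members rose and 45 fell.

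At 15 °C the old groups differed in the same way, with 7 members higher and 44 lower in octr-1 of 100 tested, where 24.1% of all features rose and 27% fell. The median log2 fold change was -0.43 here too. In 10 of the 100 members 1 of the groups had a mean under 10, and 7 of those 10 were called. col-19 had 120, 148, 115, 178 and 216 normalized reads in octr-1, against 513, 446, 472, 470 and 459 in WT, a 3.11-fold fall with no overlap (adjusted p = 1.3e-06). col-120 was 1.40-fold lower and col-144 4.23-fold lower in octr-1, and col-10 and col-99 were not called. The other large falls among abundant members were those of col-119 (3.30-fold), col-124 (2.99-fold), col-166 (2.83-fold), col-140 (2.49-fold) and col-106 (2.39-fold). Without WT old 15 °C replicate 3, which was far above the other WT libraries for col-144 and col-166, these were 3.17-fold and 2.46-fold lower.

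The 7 members that rose in octr-1 at 15 °C were col-61, col-89, col-96, col-113, col-130, col-135 and col-172. Of these, col-89 had 137, 125, 155, 150 and 136 normalized reads in octr-1, against 90.0, 77.0, 95.2, 68.9 and 60.5 in WT, with all octr-1 libraries above all WT libraries (1.80-fold, adjusted p = 1.09e-05). Without WT old 15 °C replicate 3, in which many members were high, 10 members rose and 40 fell of 94 tested.

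At 25 °C most tested members were lower in old octr-1 animals. Of 110 members tested, 91 fell and 7 rose, where 39.7% of all features fell and 36.8% rose, and the median log2 fold change was -2.15 against about 0 for all features. A fall of at least 2-fold was called for 79 members and for 6.34% of all features, and a rise of at least 2-fold for 1 member and for 10.7% of all features. In 39 of the 110 members 1 of the groups had a mean under 10, and 33 of those 39 were called. The groups did not overlap for 90 of the 98 members called and for 82% of all features called.

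The adult marker col-19 had 41.0, 43.0, 30.7, 35.1 and 17.8 normalized reads in old octr-1 animals at 25 °C, against 1926, 1967, 1926, 1990 and 1848 in WT. The WT libraries lay within a narrow range and the octr-1 libraries far below it, 58.3-fold lower (log2 -5.87 ± 0.20, adjusted p = 7.16e-10). col-7 was 7.15-fold lower, and col-62, with 2.22 ± 1.03 in octr-1 and 16.5 ± 6.21 in WT, had too few reads to test. Among the collagens of lifespan work, col-10 was 3.95-fold, col-13 8.56-fold, col-120 3.76-fold and col-144 6.80-fold lower in octr-1. The transmembrane collagen col-99 was 1.21-fold lower (adjusted p = 0.00132), with 170 ± 9.62 in octr-1 and 206 ± 14.8 in WT.

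The largest fall of a tested member at 25 °C was that of col-93, with 6.23, 5.49, 1.92, 3.90 and 0 normalized reads in octr-1, against 440, 424, 534, 519 and 463 in WT (log2 -7.01 ± 0.50, adjusted p = 6.52e-07). As the octr-1 values are near 0 and 1 was added before the logarithm, this fold change understates the ratio of the means, 3.51 in octr-1 and 476 in WT. col-20, with 23.1, 18.3, 17.3, 10.7 and 12.5 in octr-1 and 1470, 1424, 1583, 1543 and 1562 in WT, was also far apart, 90.1-fold lower in octr-1. col-139, col-80 and col-179 were 58.0-, 53.7- and 45.2-fold lower. Not every abundant member fell as far: col-106 had 1467, 1598, 1444, 1702 and 1364 in octr-1, against 4404, 4421, 4304, 4662 and 4540 in WT, a 2.96-fold fall (adjusted p = 9.81e-19).

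The 7 members that rose in octr-1 at 25 °C were col-35, col-45, col-53, col-68, col-89, col-154 and col-172. col-154 was the one with a group mean of at least 100 and no overlap, at 115, 107, 108, 124 and 110 normalized reads in octr-1, against 55.5, 36, 106, 68.8 and 68.2 in WT (1.77-fold, adjusted p = 0.000909). WT replicate 3 nearly reached the lowest octr-1 library. col-35 was the one that rose at least 2-fold, with 33.4 ± 4.80 in octr-1 and 12.02 ± 2.96 in WT (log2 1.42, adjusted p = 6.82e-07).

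**Figure D3:**
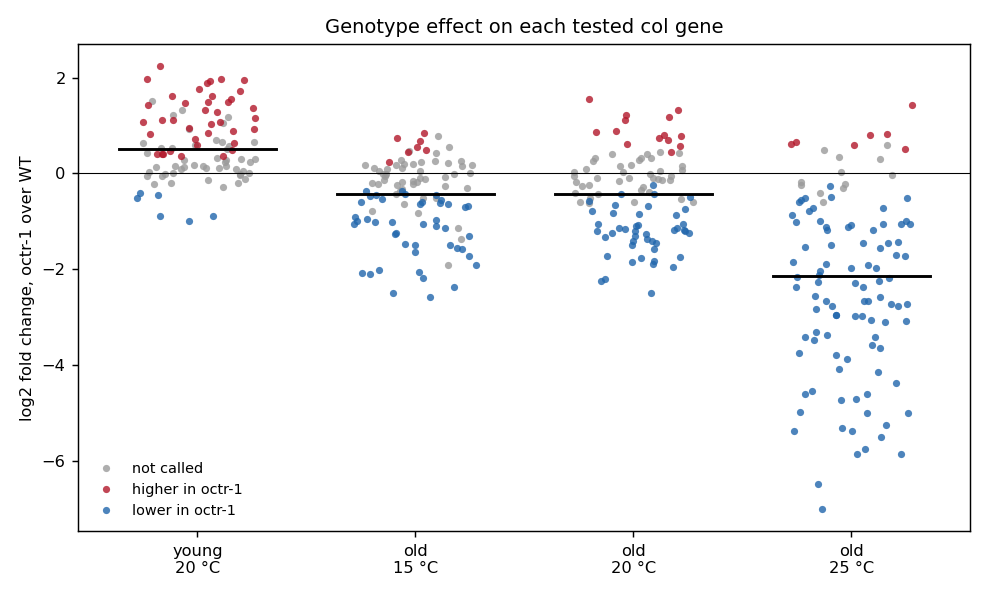
Log2 fold change of octr-1 over WT for each tested col gene in the young groups and in the 3 old conditions (15, 20 and 25 °C); red points rose, blue points fell and grey points were not called, and bars are medians over the tested genes. The median is 0.51 in young animals, -0.43 in old animals at 15 and at 20 °C, and -2.15 at 25 °C.

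The calls of a member were then followed across the conditions. Of 73 members tested in all 4 genotype comparisons, 3 were lower in octr-1 in each, namely col-43, col-95 and col-158, and 0 were higher in each. Of all features tested in the 4 comparisons, 4.14% were lower in each, a share near that of the members, and 4.82% were higher in each. Among the 84 members tested at all 3 temperatures in old animals, 32 were lower in octr-1 at each temperature, and col-89 was the one that was higher at each, where 9.78% of all features were lower and 9.78% higher at each. Of the 39 members that rose in young octr-1 animals, 37 were lower in old octr-1 animals at 25 °C and 1 was higher, where 35.1% of all features that rose in young octr-1 animals were lower and 47.2% higher. The fall was not particular to these members. Of those tested in both but not called in young animals, 41 were lower at 25 °C, 2 higher and 3 not called. Those that rose in young animals and fell at all 3 temperatures in old animals were the 8 genes col-77, col-81, col-124, col-125, col-144, col-147, col-166 and col-179. The share of all features with that last pattern is not given here.

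Whether the genotype difference itself changed between conditions was tested in edgeR's quasi-likelihood fit to all 40 libraries. Between 25 and 20 °C in old animals the log2 difference of octr-1 from WT was lower at 25 °C for 76 of 127 members and higher for 4, where 26.3% of all features were lower and 24.3% higher. The smallest p-values were those of col-19 (-4.58 ± 0.21 on the log2 scale), col-119 (-3.87 ± 0.18), col-178 (-3.74 ± 0.18), col-140 (-4.02 ± 0.20) and col-179 (-4.39 ± 0.25), each with an adjusted p of at most 1.06e-17. Without WT old 25 °C replicate 2 the counts were 79 lower and 2 higher. Between 25 and 15 °C 58 members were lower and 6 higher, where 27% of all features were lower and 27.7% higher, with 75 lower and 4 higher without WT old 15 °C replicate 3.

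Between 15 and 20 °C the genotype difference changed for fewer members, 8 lower and 9 higher of 127, where 10.3% of all features were lower and 12.1% higher. col-181 (log2 0.71 ± 0.13), col-118 (0.59 ± 0.11) and col-101 (0.79 ± 0.18) were less reduced in octr-1 at 15 °C than at 20 °C, and col-105 (-1.28 ± 0.38) and col-56 (-1.16 ± 0.34) went the other way. The split of these few calls depended on single libraries: 8 were higher and 5 lower without WT old 15 °C replicate 3, 9 higher and 4 lower without WT old 20 °C replicate 4, 5 higher and 7 lower without octr-1 old 15 °C replicate 4, and 5 higher and 8 lower without octr-1 old 15 °C replicate 5. It was 5 higher and 10 lower when libraries were scaled by their size alone. Between old and young animals at 20 °C the genotype difference was lower in old animals for 62 members and higher for 6, where 19.4% of all features were lower and 9.03% higher. The counts were 70 lower and 5 higher without WT young replicate 1, and 58 lower and 6 higher without WT young replicate 2. The smallest p-values there belonged to col-118 (-1.42 ± 0.10), col-80 (-2.05 ± 0.16), col-8 (-1.50 ± 0.12), col-179 (-1.52 ± 0.13) and col-181 (-1.47 ± 0.12).

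Old animals were also compared between temperatures within each genotype, and 25 °C against 20 °C gave opposite outcomes. In octr-1, 5 of 91 members were higher at 25 °C and 62 lower, where 37.3% of all features were higher and 37.4% lower (limma). In WT, 65 of 127 members were higher at 25 °C and 19 lower, where 29.2% of all features were higher and 29.1% lower (edgeR quasi-likelihood test). Of the 91 members tested in both genotypes, 26 were lower at 25 °C in octr-1 and higher at 25 °C in WT, 16 were lower in both and 3 were higher in both. The share of all features with such pairs of calls is not given here, so these joint counts only describe the members. In octr-1, 16 of the tested members had a mean under 10 in 1 of the groups, and 15 of these were called. In WT there were 37 such members, of which 25 were called. Such members could be tested through their higher group alone.

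Among members with a group mean of at least 100, the largest falls at 25 °C in octr-1 were those of col-19 (17.9-fold), col-119 (16.4-fold), col-179 (15.6-fold), col-140 (14.7-fold), col-80 (12.7-fold) and col-178 (12.1-fold). col-140 had 72.6, 73.5, 54.5, 58.5 and 50.8 normalized reads at 25 °C, against 849, 949, 945, 967 and 871 at 20 °C. In these octr-1 libraries col-154 was 1.54-fold higher at 25 °C. The largest rises of such members at 25 °C in WT were those of col-138 (9.22-fold), col-139 (6.41-fold), col-129 (6.30-fold), col-93 (6.29-fold), col-77 (6.17-fold) and col-81 (5.31-fold). col-93 had 402, 385, 482, 472 and 419 scaled reads at 25 °C, against 60.8, 42.5, 76.9, 62.6 and 98.9 at 20 °C, and the groups were far apart (log2 2.65 ± 0.22, adjusted p = 1.39e-12). col-20 was 3.09-fold and col-19 1.38-fold higher at 25 °C in WT, and col-106, with 4052 ± 132 at 25 °C and 4103 ± 320 at 20 °C, was not called (adjusted p = 0.874).

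Some members were lower at 25 °C in both genotypes, col-99 among them. It was 2.98-fold lower at 25 °C in octr-1 (178 ± 9.95 at 25 °C and 534 ± 30.4 at 20 °C, normalized reads) and 2.35-fold lower in WT (187 ± 12.7 at 25 °C and 440 ± 41.9 at 20 °C, scaled reads). The test of the difference between these effects gave a log2 value of -0.33 ± 0.11 (adjusted p = 0.0144). col-111, col-135, col-113, col-121 and col-76 were the other abundant members with the largest falls at 25 °C in WT, by 1.29- to 1.89-fold.

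**Figure D4:**
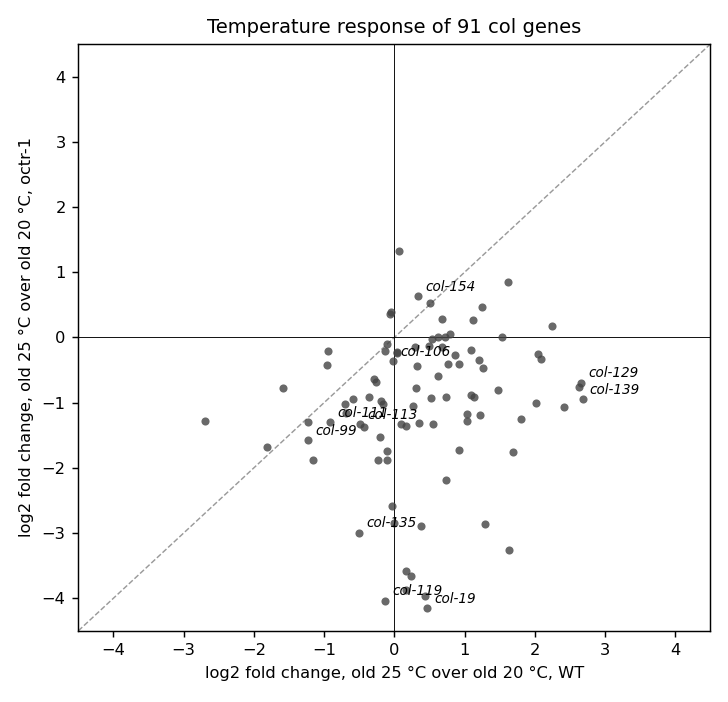
Log2 fold change of old animals at 25 °C over 20 °C for the 91 col genes tested in both genotypes, WT on the horizontal axis (edgeR) and octr-1 on the vertical axis (limma); the dashed line marks equal change. Of these genes, 26 lie at the lower right with calls in both fits, lower in octr-1 and higher in WT, among them col-19, and 16 were called lower in both, among them col-99.

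At 15 °C against 20 °C the calls were more even. In octr-1, 26 of 98 members were higher at 15 °C and 38 lower, where 31.7% of all features were higher and 34.8% lower. In WT, 31 of 104 members were higher at 15 °C and 28 lower, where 30.5% of all features were higher and 33.4% lower. Of the tested members, 14 in octr-1 had a mean under 10 in 1 of the groups, and 8 of these were called. In WT there were 8 such members, of which 3 were called. The WT result rested on 1 library: without WT old 15 °C replicate 3, 19 members were higher and 33 lower of 98 tested, and the median log2 fold change was -0.20 in place of 0.10.

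The abundant members with the largest falls at 15 °C against 20 °C shared col-20, col-140 and col-178 between the genotypes. In octr-1 they were col-20 (7.30-fold), col-124 (6.74-fold), col-178 (5.84-fold), col-140 (5.31-fold), col-179 (5.10-fold) and col-106 (3.73-fold). In WT they were col-178 (6.70-fold), col-101 (5.46-fold), col-140 (5.37-fold), col-80 (5.12-fold), col-20 (5.06-fold) and col-135 (4.87-fold). col-113 rose in both, with 382, 348, 362, 349 and 378 normalized reads at 15 °C in octr-1, against 170, 230, 200, 158 and 216 at 20 °C (1.88-fold), and with 348, 264, 320, 257 and 278 at 15 °C in WT, against 115, 126, 108, 115 and 132 at 20 °C (2.44-fold). col-118 and col-116 also rose in both, by 1.28- to 1.89-fold.

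At 15 °C against 25 °C the genotypes went in different directions. In octr-1, 56 of 86 members were higher at 15 °C and 7 lower, where 38.6% of all features were higher and 40.4% lower. In WT, 24 of 115 members were higher at 15 °C and 62 lower, where 38.2% of all features were higher and 40.8% lower, and without WT old 15 °C replicate 3 the counts were 19 and 77. Of the tested members, 14 in octr-1 had a mean under 10 in 1 of the groups, and 13 of these were called. In WT there were 18 such members, of which 14 were called. In octr-1, col-19 was 4.85-fold higher at 15 °C, with 126, 157, 122, 191 and 232 normalized reads at 15 °C, against 41.1, 43.0, 30.9, 35.5 and 18 at 25 °C. In the same octr-1 libraries col-106 was 2.93-fold lower at 15 °C (523 ± 80.1 at 15 °C and 1524 ± 135 at 25 °C). In WT, col-20 was 15.97-fold and col-93 15.3-fold lower at 15 °C than at 25 °C. Without octr-1 old 25 °C replicate 4, 54 members were higher and 4 lower at 15 °C in octr-1.

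With age at 20 °C more tested members fell than rose in both genotypes. In octr-1, 75 of 127 members fell with age and 33 rose, where 37.9% of all features fell and 46.6% rose. In WT, 55 fell and 41 rose, where 35.8% of all features fell and 48.6% rose. The median log2 fold change of the tested members was -1.67 in octr-1 and -0.60 in WT, against 0.14 and 0.23 for all features. A mean under 10 in 1 of the groups was found for 49 of the tested members in octr-1, of which 41 were called, and for 44 in WT, of which 31 were called; such members passed the minimum through their higher group alone. In WT, 43 rose and 53 fell without WT young replicate 1, and 38 rose and 60 fell without WT young replicate 2. In an edgeR fit to the 10 WT libraries alone, 27 members rose and 53 fell of 97 tested.

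Of the adult-stage collagens, col-19 fell with age 52.8-fold in octr-1 (529 ± 25.9 scaled reads in old and 27869 ± 3514 in young animals) and 19.6-fold in WT (1266 ± 134 in old and 24863 ± 3348 in young animals). col-7 fell 74.2-fold in octr-1 and 3.64-fold in WT, and col-62 fell 57.8-fold in octr-1 and 3.16-fold in WT. The lifespan collagens did not move together: col-10, col-13 and col-144 fell with age in both genotypes, while col-120 was 1.39-fold lower in old octr-1 animals and 1.48-fold higher in old WT animals. The transmembrane collagen col-99 rose with age in both, 2.12-fold in octr-1 and 2.75-fold in WT.

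Among members with a group mean of at least 100, the largest falls with age in octr-1 were those of col-93 (452-fold), col-139 (344-fold), col-129 (297-fold), col-81 (246-fold), col-20 (231-fold) and col-159 (181-fold). In WT they were those of col-93 (118.6-fold), col-20 (66.4-fold), col-94 (51.8-fold), col-129 (43.1-fold), col-142 (40.7-fold) and col-124 (38.6-fold). col-93 had 29.6, 21.5, 6.49, 24.9 and 22.5 scaled reads in old octr-1 animals, against 9160, 8932, 9055, 9844 and 11412 in young ones. The rises were smaller. col-121 had 250, 243, 267, 272 and 281 scaled reads in old octr-1 animals, against 46.3, 73.6, 60.6, 49.9 and 46.4 in young ones (4.77-fold), and it rose 7.31-fold in WT. col-111, col-113 and col-116 also rose in both genotypes, by 1.94- to 2.96-fold. In the annotation col-99, col-111, col-113 and col-121 overlap a gene on the other strand, and col-99 and col-116 overlap one on the same strand. The values of these rising members may therefore hold reads of the partner genes.

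**Figure D5:**
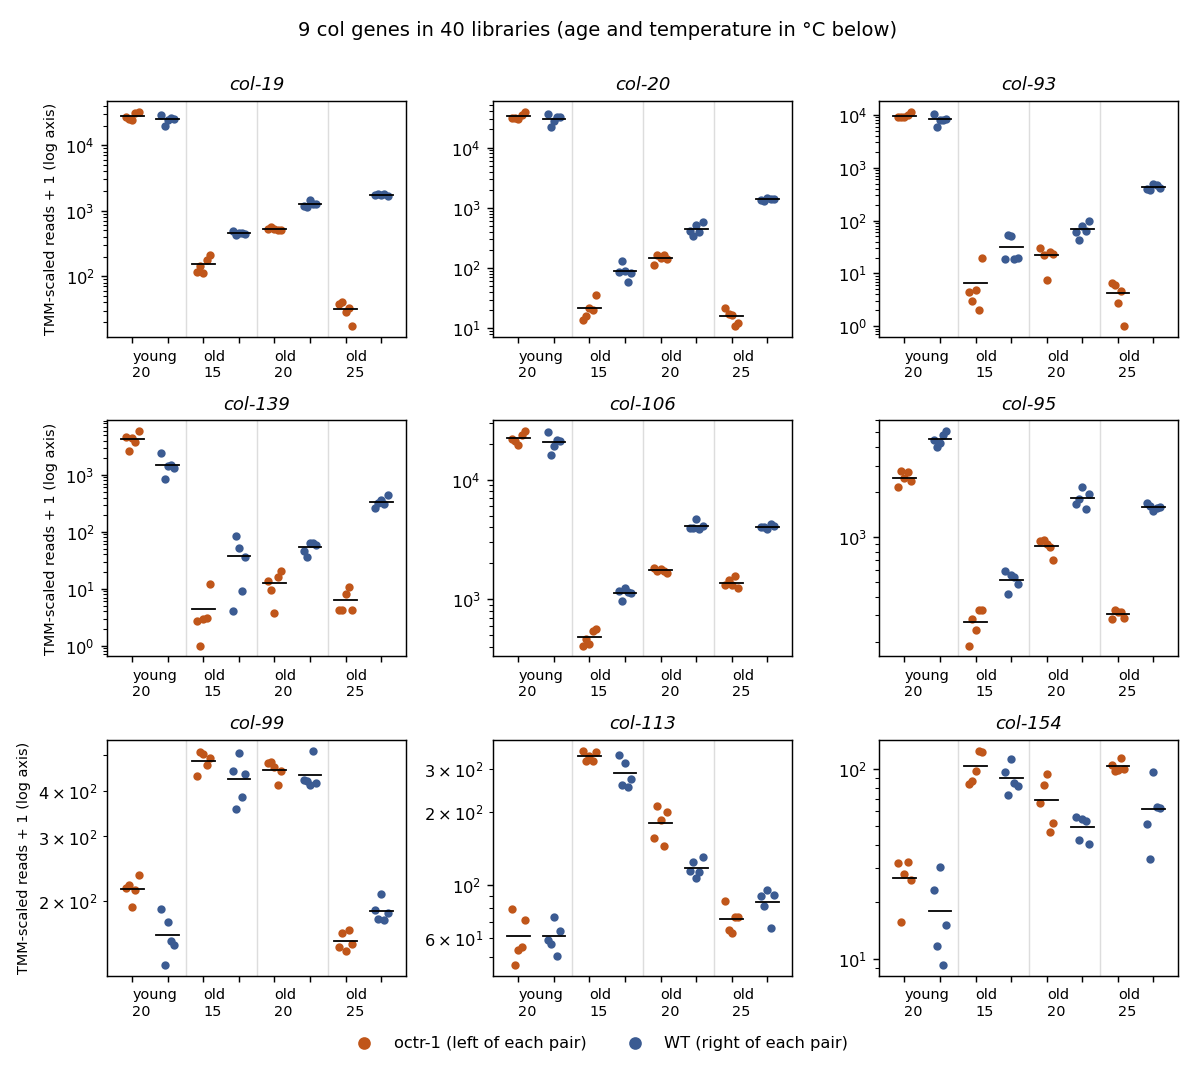
Scaled reads plus 1 (log axis) of 9 col genes in the 40 libraries, octr-1 left of WT in each pair, by age and temperature; points are libraries and bars are group means. col-19, col-20, col-93 and col-139 lie far lower in old octr-1 than in old WT libraries at 25 °C, col-106 and col-95 are lower in octr-1 at each old condition by smaller amounts, and col-99, col-113 and col-154 have their highest means in an old group.

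The genotype difference at 25 °C was read beside the age comparison in WT at 20 °C, which uses other libraries. Of 53 members that fell with age in WT and were tested at 25 °C, 52 were lower in octr-1 and 1 higher, where 58.5% of all features that fell with age were lower and 20.1% higher. The median log2 fold change was -3.10 for these members and -0.17 for these features. Of 31 that rose with age, 18 were lower in octr-1 and 5 higher, where 28% of all features that rose with age were lower and 47.9% higher. The medians were -0.59 and 0.18. Of 26 members not called with age, 21 were lower in octr-1 and 1 higher, where 29.7% of all features not called with age were lower and 43.5% higher. The medians were -1.71 and 0.11.

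The members are spread over all 6 chromosomes of the WBcel235 annotation, in which 128 of the 129 were found: 17 on chromosome I, 18 on II, 12 on III, 31 on IV, 26 on V and 24 on X. On each chromosome most tested members were lower in old octr-1 animals at 25 °C, from 9 of 14 on chromosome I (median log2 fold change -1.01) to 22 of 24 on chromosome V (median -2.92). The annotation holds 20 pairs of members that are direct neighbours. In 13 of these pairs both genes were tested at 25 °C, and in 12 of the 13 both fell in octr-1. As 91 of all 110 tested members fell there, most pairs of any members would also fall together. Some genes, such as col-20, col-93 and col-145, stand in more than 1 pair. The 2 log2 fold changes of a neighbouring pair differed by a median of 1.47, against 1.86 over all pairs of tested members. col-178 and col-179 had log2 fold changes of -5.004 and -5.498, and col-12 and col-13 of -3.07 and -3.10. Reads could have been split between the near copies col-12 and col-13, so their values may not be separate. Other pairs lay further apart, such as col-92 and col-93 at -3.38 and -7.01. In young animals 14 neighbouring pairs could be tested, of which 5 moved in 1 direction together, among them col-10 and col-145. Of all 93 members tested there, 39 rose and 6 fell.

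Of the members, 52 overlap a gene on the other strand and 10 overlap one on the same strand. The kit keeps strand, but the strand setting of the counting is not given in the sources used here, so reads of such partners may be mixed. Members with a partner on the other strand were lower in octr-1 at 25 °C in 38 of 47 tests (median log2 fold change -1.97), and those without in 53 of 63 (median -2.25).

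Cuticle collagens outside the col family, whose mutants are dumpy, long, roller, squat or blistered, were counted as a list of their own. In young animals 11 of 19 tested rose in octr-1 and 0 fell, where 19.6% of all features rose and 24% fell. In old animals 1 of 19 rose and 10 fell at 20 °C (22.8% and 24.7% of all features), 0 of 20 rose and 14 fell at 15 °C (24.1% and 27%), and 1 of 20 rose and 19 fell at 25 °C (36.8% and 39.7%). At 25 °C rol-1 (log2 -4.27), bli-1 (-3.34) and dpy-13 (-3.25) fell most, and dpy-10 rose by 0.12. With age in WT, 13 of 20 rose and 2 fell, the 2 being rol-1 and bli-1, where 48.6% of all features rose and 35.8% fell, and the median log2 fold change was 0.94. Cuticlins, which form other layers and structures of the cuticle, rose with age in WT in 29 of 35 tests and fell in 3 (median 2.56). At 25 °C 15 of 32 cuticlins rose in octr-1 and 10 fell, where 36.8% of all features rose and 39.7% fell.

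A list of genes for the hydroxylation, trimming and cross-linking of collagen chains held mostly enzymes. Of these genes, 6 of 14 fell in octr-1 at 25 °C and 3 rose, where 39.7% of all features fell and 36.8% rose. The share that fell was near that of all features, and the 3 that rose are not named here. The prolyl 4-hydroxylase subunits pdi-2, dpy-18 and phy-2 were lower by 0.54 to 0.72 on the log2 scale. In young animals 6 of 14 rose and 0 fell, where 19.6% of all features rose and 24% fell, and their median log2 fold change was 0.10. Of the molting genes, 9 of 15 rose in young octr-1 animals and 0 fell. At 25 °C 9 of 15 molting genes fell and 4 rose, with fbn-1, a fibrillin-like matrix protein (log2 -1.74), and mlt-11, a protease inhibitor-like protein (-1.54), lowest. Of the known regulators of collagen genes, 10 of 25 rose and 6 fell at 25 °C, and the share that rose was near the 36.8% of all features. The epidermal GATA factor elt-3 rose by 0.22, dbl-1, the ligand of the body-size pathway, rose by 0.37, and nhr-23, a nuclear receptor of the molting cycle, fell by 0.29.

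Markers of the epidermis, the source of cuticle collagen, were counted in the same comparisons. At 25 °C 9 of 12 epidermal markers fell in octr-1 and 2 rose, where 39.7% of all features fell and 36.8% rose. Their median log2 fold change was -0.34, and their summed level was 30453 to 33632 normalized reads in octr-1 and 40694 to 43074 in WT. The fall was largest for wrt-10 (log2 -1.38). At 15 °C 7 of 12 epidermal markers rose and 1 fell (summed level 59577 to 65018 in octr-1, 47700 to 52898 in WT), where 24.1% of all features rose and 27% fell. At 20 °C 4 rose and 1 fell (60280 to 65763 in octr-1, 52622 to 56585 in WT), where 22.8% of all features rose and 24.7% fell. Most called col genes fell at both of these temperatures, and a link between these markers and the col genes was not tested. In young animals 8 of 12 epidermal markers rose and 1 fell (26842 to 28562 in octr-1, 24680 to 27125 in WT), where 19.6% of all features rose and 24% fell. Within octr-1, 11 of 12 were lower at 25 °C than at 20 °C and 0 higher (32024 to 35437 at 25 °C, 65001 to 70904 at 20 °C), where 37.4% of all features were lower and 37.3% higher.

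Markers of other tissues moved as well. At 25 °C 8 of 9 intestinal markers tested fell in octr-1 and 0 rose (summed level 77260 to 89827 in octr-1, 413898 to 451267 in WT), 7 of 10 germline markers fell and 1 rose (119199 to 125502 in octr-1, 167172 to 184737 in WT), and 6 of 8 body wall muscle markers fell and 1 rose (20305 to 23052 in octr-1, 28378 to 31475 in WT). Of all features 39.7% fell and 36.8% rose in that comparison. Sperm markers rose in octr-1 in 6 of 6 tests in young animals, in 6 of 7 at 15 and at 20 °C, and in 7 of 7 at 25 °C (summed level at least 712 in octr-1 and at most 257 in WT). Of all features 19.6% rose in young animals, 24.1% at 15 °C, 22.8% at 20 °C and 36.8% at 25 °C. None of the markers in the tables was at 0 in every library of a group. The part of these tissue markers in the col results was not tested.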

How the data were processed

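The authors deposited 9 comparison tables of signal values, reads per gene divided by a size factor, here called normalized reads. Per the submitters' processing notes, bcl2fastq, HISAT2 2.2.1, featureCounts, DESeq2 1.31.16 and build ce10 were used, and per the labels' protocols TruSeq Stranded mRNA libraries were made. The authors' tables also hold a log2 fold change and an adjusted p-value from DESeq2, used here only to check the exchanged column names (the sign was that of the names used for 11825 of 11825 called features). Whole reads were recovered from the values of the deposited tables (100% whole within 0.001). Genotype comparisons and temperature comparisons with a table were tested on log2(value + 1) with limma 3.58.1 (R 4.3.3, robust trend) over features with 10 or more normalized reads in at least 5 libraries. A fold change is on that scale and understates the change of low genes. WT at 25 °C against 20 °C, age, and differences between genotype effects had no table; there edgeR 4.0.16 was used, with TMM and its quasi-likelihood test, in 1 fit to the recovered reads of the 40 libraries. The Benjamini-Hochberg threshold was 0.05 over all features tested. Levels given as scaled reads are on edgeR's scale and are not comparable with normalized reads.

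Members, gene lists and tests were chosen with earlier results of these data known. Named were, in each comparison, up to 6 called members in each direction with the largest changes, no overlap and a group mean of at least 100, the 5 of smallest p in each difference, and members with a known role; col-35 and the members of other short lists of calls were named after their values were seen. Coordinates and sequences are not used here, as no genome of the files' build was at hand, and no motif search was run; chromosomes, neighbours and exon lengths are from WBcel235. The tests were checked on simulated data. Alternatives were edgeR, DESeq2 1.42.0, filters, pseudocounts, scaling, a replicate block and leaving out each library.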

Additional observations from a re-analysis of the deposited data

Results flagged for a closer look

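A library lay apart from the other 4 of its group, by a gap to its nearest neighbour, as a ratio to the group's range, above Dixon's 95% limit, in several sets of values; chance gives this in about 1 in 20 groups, and it occurred in 14 of 272 sets of a shown gene and a group. In WT old 15 °C, replicate 3 was high for the share of reads from col genes (ratio 0.781), col-12 (0.881), col-144 (0.762) and col-166 (0.743). In octr-1 old 15 °C, replicate 5 was high for col-12 (0.75), col-81 (0.838), col-93 (0.834) and col-139 (0.818), and replicate 3 for col-133 (0.737). In octr-1 old 20 °C, replicate 5 was high for col-7 (0.717) and replicate 2 for col-133 (0.724). In WT old 20 °C, replicate 4 was high for col-99 (0.875) and col-133 (0.741), and replicate 3 for col-106 (0.718) and col-144 (0.713). Over all 129 members, 71 of 1032 sets had such a library, and in 17 of them it was WT old 15 °C replicate 3.

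The genotype effect differed between conditions in edgeR's test of the difference for several members, given here as log2 values. Between 25 and 20 °C in old animals 80 members were called, and the 5 of smallest p were col-19 (-4.58), col-119 (-3.87), col-178 (-3.74), col-140 (-4.02) and col-179 (-4.39). Between 15 and 20 °C 17 were called, led by col-118 (0.59), col-181 (0.71), col-101 (0.79), col-105 (-1.28) and col-56 (-1.16). Between 25 and 15 °C 64 were called, led by col-119 (-3.62), col-101 (-3.60), col-135 (-3.06), col-140 (-4.10) and col-181 (-2.32). Between old and young animals at 20 °C 68 were called, led by col-118 (-1.42), col-80 (-2.05), col-8 (-1.50), col-179 (-1.52) and col-181 (-1.47).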

How the results depend on the processing

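Of 293 recomputed counts of called members, 292 stayed within 1.5 times their main count. The exception was octr-1 at 25 °C against 20 °C with the column names of its own table, where the directions turned round: 67 members were called, 62 higher and 5 lower at 25 °C. Under those names col-19 had a log2 fold change of 4.16, col-80 3.67, col-119 4.04, col-140 3.88, col-154 -0.63, col-178 3.59 and col-179 3.96; the other 2271 recomputed values of named members kept their direction and call.

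Leaving out 1 library at a time, the number of called members ranged from 36 to 56 for octr-1 against WT in young animals, 46 to 53 at 15 °C, 51 to 57 at 20 °C and 75 to 99 at 25 °C. It ranged from 52 to 56 in WT and 52 to 60 in octr-1 at 15 °C against 20 °C, 79 to 96 in WT and 54 to 62 in octr-1 at 15 °C against 25 °C, and 81 to 87 in WT and 59 to 66 in octr-1 at 25 °C against 20 °C. With age it ranged from 94 to 98 in WT and 105 to 109 in octr-1. For the differences between genotype effects it ranged from 73 to 83 (25 against 20 °C), 12 to 17 (15 against 20 °C), 58 to 79 (25 against 15 °C) and 63 to 75 (old against young).

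Scaling by library size alone moved the median log2 fold change of all features by 0.60 and 0.57 with age in WT and octr-1, by 0.21 for octr-1 against WT at 25 °C, and by up to 0.22 in the other comparisons with 25 °C. Under it 9 members were higher and 55 lower at 25 °C against 20 °C in octr-1, and 44 higher and 11 lower at 15 °C against 25 °C. For the genotype effect at 15 °C against 20 °C, DESeq2 called 7 higher and 13 lower, and no filter gave 7 and 5.

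Same-numbered libraries correlated over 10143 genes at -0.326 to 0.373, and in no comparison were all 5 pairs over 0.1. At most 5 of the 10 libraries of a comparison correlated best with their own number. The main tests therefore did not pair libraries by number, but this check cannot show that same-numbered libraries share no batch. With the replicate block 51 members were called in young animals (45 without it), and the block moved no count of called members by over 1.5 times.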
